A study of Mus musculus with 6 samples.

Results

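The 41 genes described here code for transcription factors and transcriptional regulators that mark, or act in, neurons of the developing cerebral cortex. They were taken by name from a fixed list, and a CLIP cluster was assigned to a gene when 1 nt or more of it lay on the strand and within the GENCODE vM1 span of that gene. All 41 names were found, among 22238 protein-coding genes of the annotation. The clusters came from HITS-CLIP, in which RNA is crosslinked to a protein by ultraviolet light, recovered with an antibody against the protein and sequenced as short tags. The tissue was cortex of wild-type CD1 mice at embryonic day 18.5, and 3 libraries were made for NOVA1 and 3 for NOVA2. No knockout or treated sample was part of these CLIP lists.

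Projection neurons of the cortex are born in sequence and settle in layers. Which layer a neuron joins, and where its axon goes, depends on transcription factors that often repress each other: Fezf2 and Bcl11b are known for subcerebral neurons, Tbr1 and Sox5 for corticothalamic and early-born neurons, and Cux1, Cux2, Pou3f2 and Pou3f3 for upper-layer neurons. Pax6 and Eomes act before that, in progenitors. NOVA1 and NOVA2 bind RNA in neurons through KH domains that recognise YCAY, where Y is C or U. Bound in introns near an alternative exon, they change whether the exon is included in the mRNA, and bound in 3' UTRs they can affect the choice of polyadenylation site. A CLIP cluster is therefore a position on the RNA of the factor, and not a position on DNA where the factor binds.

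Each list gives one tag count per cluster, pooled over the 3 libraries of the protein, with at least 10 tags and tags from at least 2 libraries. No value per library was given, so the spread between replicates is unknown and no test was made. The 95% intervals cover counting error only, and they treat clusters of one gene as independent although these share a transcript. The whole lists held 9988 NOVA1 clusters with 304703 tags and 36591 NOVA2 clusters with 1309270 tags. The lists do not show how deep each library was. The study gives more unique tags for the NOVA2 libraries than for those of NOVA1. A fixed threshold of 10 tags therefore lets in weaker sites of NOVA2 than of NOVA1, and counts and shares of the lists are not set to equal depth unless this is stated. RNA levels were not analysed here, so a gene without clusters and a gene with little RNA cannot be told apart.

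Sequences of the positions on which the description turns are given first, 5' to 3' on the strand of the gene in the mm9 (NCBIM37) genome, with each YCAY in capitals, that is UCAU and UCAC as well as CCAU and also CCAC, written with T. The first set shows intron clusters: the one with most tags of both proteins, in intron 5 of Auts2 (chr5:132210301-132210554, minus strand, 763 NOVA2 tags); the one with most NOVA2 tags and no NOVA1 cluster, in intron 1 of Auts2 (300 nt, chr5:132883618-132883917, 176 tags); the one with the widest gap between the proteins, in intron 2 of Cux2 (100 nt, chr5:122419603-122419702, minus strand, 170 NOVA2 and 12 NOVA1 tags); and the one with most YCAY, in intron 2 of Sox6 (100 nt, chr7:123074934-123075033, minus strand, 92 NOVA2 tags).
Auts2 intron 5: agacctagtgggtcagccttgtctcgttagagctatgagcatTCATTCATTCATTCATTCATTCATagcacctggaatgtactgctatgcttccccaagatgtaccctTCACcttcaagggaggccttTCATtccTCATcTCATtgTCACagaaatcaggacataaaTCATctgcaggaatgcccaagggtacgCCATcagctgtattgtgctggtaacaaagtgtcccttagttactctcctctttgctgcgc
Auts2 intron 1: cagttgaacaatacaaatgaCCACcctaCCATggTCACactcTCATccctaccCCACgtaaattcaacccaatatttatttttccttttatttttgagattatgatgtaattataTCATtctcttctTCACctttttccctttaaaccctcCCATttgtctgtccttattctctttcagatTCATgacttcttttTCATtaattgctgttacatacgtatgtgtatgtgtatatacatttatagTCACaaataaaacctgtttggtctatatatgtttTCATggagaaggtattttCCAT
Cux2 intron 2: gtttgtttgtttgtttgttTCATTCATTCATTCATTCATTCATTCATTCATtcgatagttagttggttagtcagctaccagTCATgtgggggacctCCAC
Sox6 intron 2: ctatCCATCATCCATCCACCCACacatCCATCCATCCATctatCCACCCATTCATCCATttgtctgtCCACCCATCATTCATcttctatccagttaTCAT
The Auts2 intron 5 and Cux2 positions both hold a run of TCAT repeated head to tail, whereas the 13 YCAY of the Auts2 intron 1 stretch are scattered.

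The next set shows clusters beside exons and clusters in mature mRNA. They are 100 nt of the NOVA2 cluster 53 nt upstream of exon 13 of Auts2 (chr5:131942138-131942237, minus strand, 268 tags) and of the NOVA2 cluster 36 nt downstream of exon 13 of Foxp1 (chr6:98891281-98891380, minus strand, 96 tags). The coding sequence of Pou3f3 is shown because Pou3f3 was the only member with a NOVA1 and no NOVA2 cluster (100 nt, chr1:42755154-42755253, plus strand, 33 tags). The last 3 are 30-nt stretches: from the 3' UTR clusters of Zbtb20 with most NOVA1 tags (chr16:43627451-43627480, plus strand, 65 tags) and with most NOVA2 tags (chr16:43628829-43628858, 173 tags), and from the cluster downstream of the annotated end of Sox11 (chr12:28021803-28021832, minus strand, 134 NOVA1 and 869 NOVA2 tags).
Auts2 before exon 13: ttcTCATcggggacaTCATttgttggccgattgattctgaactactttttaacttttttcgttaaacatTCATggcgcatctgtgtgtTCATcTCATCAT
Foxp1 after exon 13: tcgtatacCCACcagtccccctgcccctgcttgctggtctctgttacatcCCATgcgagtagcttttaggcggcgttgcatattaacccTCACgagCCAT
Pou3f3 coding: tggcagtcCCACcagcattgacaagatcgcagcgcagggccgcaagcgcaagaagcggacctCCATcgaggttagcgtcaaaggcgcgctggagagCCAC
Zbtb20 3' UTR, NOVA1: tatttctTCACatataTCACCCATCACCAC
Zbtb20 3' UTR, NOVA2: tgctacccaaTCATctctTCACttccCCAC
Sox11 downstream: agtactgaagccaagCCACttcCCATTCAT

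Most of the factor transcripts were bound by NOVA2, and most of those also by NOVA1. NOVA2 had 618 clusters with 20986 tags in 34 of the 41 genes (82.9%, 68.7 to 91.5), where 22.7% of all protein-coding genes held a NOVA2 cluster. NOVA1 had 112 clusters with 2421 tags in 25 of the 41 genes (61.0%, 45.7 to 74.3), where 12.8% of all protein-coding genes held a NOVA1 cluster. The members were chosen with earlier results of these data known, so these shares describe the list and not cortical factors in general. Among 53 further cortical regulators, 24 held a NOVA2 cluster and 17 a NOVA1 cluster. Of the members, 24 held clusters of both proteins, 10 of NOVA2 alone (Satb1, Cux1, Neurod6, Mef2d, Myt1, St18, Zfhx4, Rorb, Lhx2 and Etv1), 1 of NOVA1 alone (Pou3f3) and 6 of neither (Eomes, Fezf2, Sox11, Pou3f2, Neurod1 and Neurod2). In the genes with both, NOVA2 had more clusters in all but Cux2 and Pax6, where the counts were equal.

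The member genes were long, with a median span of 149912 nt against 15516.5 nt over all protein-coding genes. All 31 members over 20 kb held a NOVA2 cluster, where 42.9% (41.9 to 43.9) of all protein-coding genes over that length did. Among the 10 members of at most 20 kb the count was 3 (Tbr1, Sox4 and Neurod6), against 7.14% (6.70 to 7.60) of all protein-coding genes of at most that length. For NOVA1 the counts were 22 of 31 long members, beside 23.6% of all long genes, and 3 of 10 short members (Tbr1, Sox4 and Pou3f3), beside 4.43%. The limit of 20 kb was set in the gap between Tbr1, at 11185 nt, and Mef2d, at 29715 nt, after the lengths and counts were seen. The 6 genes without clusters spanned between 1690 nt (Pou3f2) and 7921 nt (Eomes). Across the 41 members, Spearman's rho of span and cluster count was 0.56 for NOVA1 and 0.79 for NOVA2, given as a description.

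**Figure D1:**
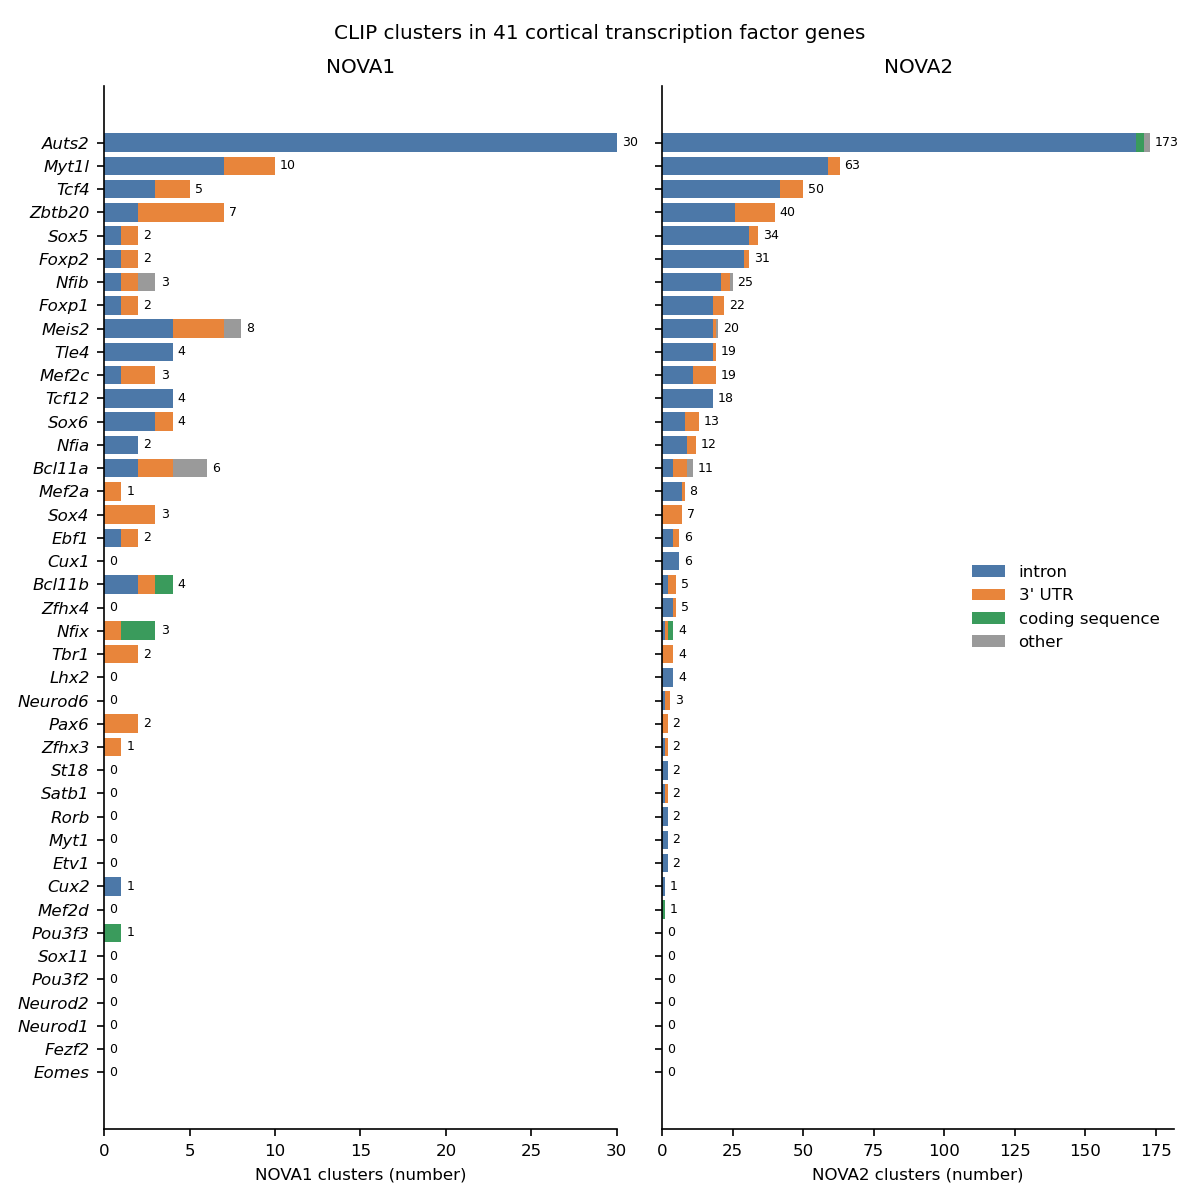
Number of NOVA1 clusters (left) and NOVA2 clusters (right) in each of the 41 genes, coloured by annotation class and ordered by NOVA2 count; the scales of the panels differ. Auts2 leads both panels with 30 and 173 clusters, and 6 genes have none in either.

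Per length of gene, the members carried more clusters than protein-coding genes did on the whole. Introns of members held 5.74 NOVA2 clusters per 100 kb, against 2.85 over all protein-coding genes, and 0.772 NOVA1 clusters per 100 kb, against 0.418. Without Auts2, the intron densities of the members were 4.42 for NOVA2 and 0.502 for NOVA1. The 3' UTRs of members held 54.7 NOVA2 clusters per 100 kb of 3' UTR, against 16.8 over all genes, and 21.6 NOVA1 clusters, against 14.4. The ratio of NOVA2 to NOVA1 clusters was 5.52 in the members and 3.70 over all protein-coding genes, and the ratio of tags was 8.67 and 4.65.

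Auts2 codes for a nuclear regulator that is associated with Polycomb complexes and with neurodevelopmental disorder, and at 1106010 nt it was the longest member. It held 173 NOVA2 clusters with 7819 tags and 30 NOVA1 clusters with 874 tags, which ranked it 11th and 13th among all protein-coding genes by cluster number. This was 28.0% of the NOVA2 and 26.8% of the NOVA1 clusters of the members, so several values over the members are also given without it. All 30 NOVA1 clusters and 168 of the 173 NOVA2 clusters lay in introns. Of the other NOVA2 clusters 3 were in coding sequence (10, 28 and 53 tags), 2 were in exons of noncoding transcripts, and the 3' UTR of 2104 nt held 0.

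Most clusters of Auts2 lay in introns 1 to 7. Introns are numbered here in the transcript with the longest coding sequence, which has 21 exons in Auts2. Intron 4, of 219373 nt, held 61 NOVA2 and 10 NOVA1 clusters, intron 1 held 38 and 7, and intron 2 held 31 and 3. Per 100 kb this was 27.8 NOVA2 clusters in intron 4, 13.5 in intron 1, 14.9 in intron 2 and 11.8 in intron 5. The densities were lower in the shorter introns 3 and 7, with 5.19 and 5.28 per 100 kb.

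All 30 NOVA1 clusters of Auts2, each in an intron, overlapped a NOVA2 cluster, beside 95.7% of NOVA1 intron clusters over all protein-coding genes. The position in intron 5 printed above had 130 NOVA1 and 763 NOVA2 tags. It was followed by 1 in intron 1 with 80 and 419 tags and 1 in intron 4 with 119 and 394 tags. Of the 14 intron clusters of Auts2 with at least 100 NOVA2 tags, 3 had no NOVA1 cluster: those with 176, 115 and 109 tags, in introns 1, 2 and 4. At the 29 intron pairs that overlapped one to one, NOVA1 tags were lower than NOVA2 tags in each, and the log2 of NOVA1 over NOVA2 tags had a median of -2.31 (-2.56 to -1.93). Divided by the unique tags of each protein's libraries, the median was -0.96 and NOVA1 was higher at 3 of the 29.

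**Figure D2:**
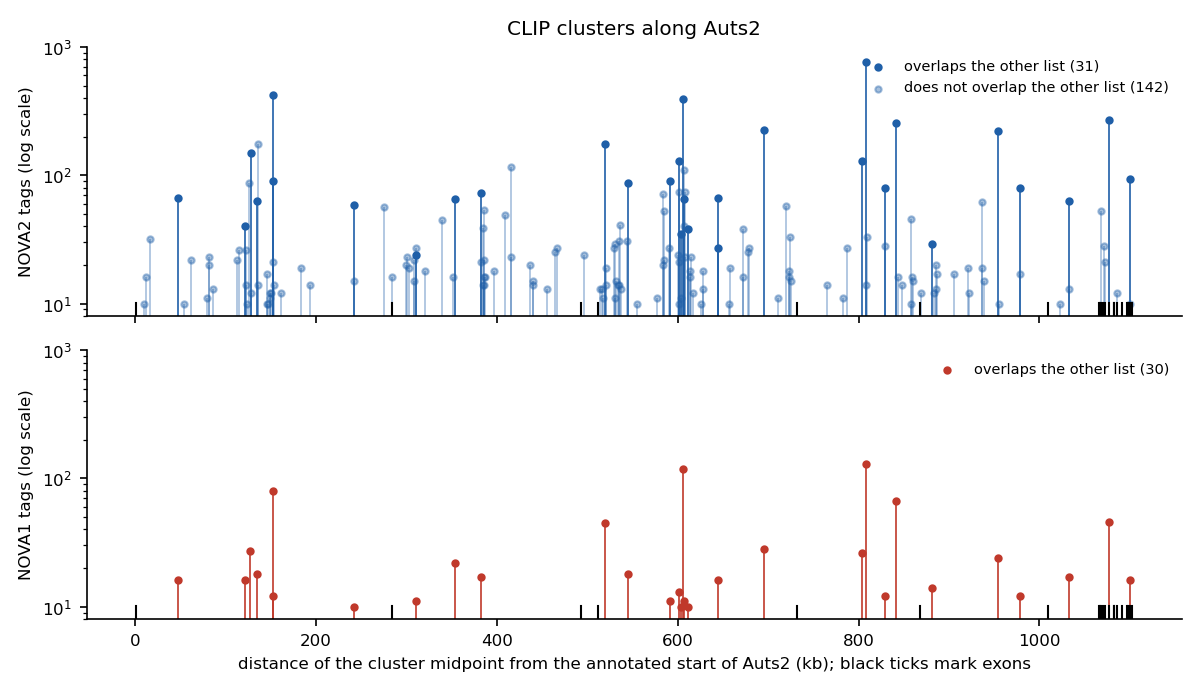
Tag count of each cluster (log scale) against the distance of its midpoint from the annotated start of Auts2 in kb, for NOVA2 (top) and NOVA1 (bottom), with black ticks at exons and pale points for clusters without overlap in the other list. All 30 NOVA1 clusters overlap a NOVA2 cluster, beside 95.7% of NOVA1 intron clusters over all protein-coding genes. Of the 173 NOVA2 clusters 142 overlap none of NOVA1.

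The 3 Myt1-family zinc-finger genes differed widely in cluster number. Myt1l, which represses non-neuronal genes in neurons, held 63 NOVA2 clusters with 1958 tags and 10 NOVA1 clusters with 188 tags. Introns held 59 of the NOVA2 clusters, 23 of them in intron 2 (77515 nt) and 14 in intron 3 (86521 nt). St18, of similar span (373710 nt against 394826 nt), held 2 NOVA2 clusters, with 13 and 50 tags, and none of NOVA1. Per 100 kb of gene this was 16.0 NOVA2 clusters in Myt1l and 0.535 in St18. Myt1, of 64466 nt, held 2 NOVA2 clusters, with 12 and 17 tags, both in intron 18. In the 3' UTR of Myt1l the proteins were closer: at 1 position NOVA1 had 30 tags and NOVA2 had 10, at another NOVA1 had 38 tags and overlapped NOVA2 clusters of 51 and 21 tags, and a NOVA1 cluster of 13 tags had no NOVA2 overlap.

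Among the bHLH genes, the E proteins, which pair with tissue-restricted bHLH factors, held many clusters and the Neurod genes few. Tcf4 held 50 NOVA2 clusters with 1741 tags, 42 in introns and 8 in the 3' UTR, and 5 NOVA1 clusters with 108 tags. Intron 3 of Tcf4 held 14 NOVA2 clusters and intron 9 held 10, among them 1 with 313 NOVA2 and 32 NOVA1 tags. Tcf12 held 18 NOVA2 and 4 NOVA1 clusters, all in introns, of which 12 and 3 were in intron 3. Neurod6, expressed in postmitotic pyramidal neurons, is a gene of 3446 nt. It had 3 NOVA2 clusters, 1 of 65 tags in its intron 41 nt downstream of exon 1 and 2 in the 3' UTR with 19 and 13 tags, and none of NOVA1. Neurod1 and Neurod2, of 4231 and 4234 nt and with 1 intron like Neurod6, had no cluster of at least 10 tags in either list. The E proteins were far longer, with 343822 nt for Tcf4 and 267568 nt for Tcf12. Per 100 kb of gene, NOVA2 clusters numbered 14.5 in Tcf4, 6.73 in Tcf12 and 87.1 in Neurod6, the last from only 3 clusters.

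In the Sox family the long genes were bound by NOVA2 mostly in introns, and the intronless Sox4 in its 3' UTR. Sox5, which delays the migration and fate change of early-born neurons, held 34 NOVA2 clusters with 1016 tags but 2 NOVA1 clusters, of 16 and 14 tags. Of these 31 NOVA2 clusters and 1 NOVA1 cluster lay in introns, and 3 and 1 in the 3' UTR. The intron clusters of Sox5 with most NOVA2 tags, 173 in intron 3 and 154 in intron 6, had no NOVA1 cluster. Sox6, its close relative, held 13 NOVA2 and 4 NOVA1 clusters, with up to 118 and 38 tags at a shared intron position. Its 3' UTR held 5 of the NOVA2 clusters and 1 of the NOVA1 clusters. The Sox6 cluster of 92 NOVA2 tags, part of which is printed above, held 41 YCAY in 460 nt. Sox4, a gene of 4795 nt that acts in newborn neurons, held 7 NOVA2 clusters with 326 tags and 3 NOVA1 clusters with 64 tags, each in its 3' UTR of 2381 nt.

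Sox11, the close relative of Sox4, had no cluster within its annotated span of 2013 nt. Within 10 kb downstream of its annotated end, however, lay 7 NOVA1 clusters with 321 tags and 9 NOVA2 clusters with 1224 tags on the same strand, between 617 and 5928 nt past the end for NOVA2. The highest had 869 NOVA2 and 134 NOVA1 tags, above the 763 and 130 tags of the highest cluster inside any member. Only 2 other members had such clusters on their strand. Pou3f3 had 5 NOVA2 clusters of 10 to 29 tags, 519 to 2204 nt past its end, and 1 NOVA1 cluster of 16 tags. Myt1 had 1 of each, with 11 NOVA1 and 14 NOVA2 tags, 7352 nt past its end for NOVA2. No other gene of the annotation lay on these positions on that strand. Whether the transcripts of these 3 genes reach so far was not tested, and these clusters are not counted among the 112 and 618.

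Both forkhead genes held many NOVA2 clusters and few of NOVA1. Foxp2, known for its part in vocal learning circuits, held 31 NOVA2 clusters with 655 tags, 12 of them in intron 2, and 2 NOVA1 clusters, of 11 and 12 tags. Foxp1 held 22 NOVA2 clusters with 794 tags and 2 NOVA1 clusters. Intron 13 of Foxp1, of 1747 nt, held 4 NOVA2 clusters with 315 tags. The highest had 195 NOVA2 and 20 NOVA1 tags and lay 570 nt from the nearest exon, and another, printed above, had 96 tags and lay 36 nt downstream of exon 13. A further cluster of 40 NOVA2 tags lay 158 nt downstream of exon 11.

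The nuclear factor I genes, which act in gliogenesis and in the formation of midline axon tracts, all held clusters of both proteins. Nfib held 25 NOVA2 and 3 NOVA1 clusters, Nfia, of similar length, 12 and 2, and Nfix, the shortest, 4 and 3. In Nfib 17 of the NOVA2 clusters lay in intron 2, and its 3' UTR held a shared position with 44 NOVA1 and 88 NOVA2 tags. All 9 intron clusters of NOVA2 in Nfia also lay in intron 2. In its coding sequence Nfix held 2 NOVA1 clusters (12 and 13 tags) and 2 NOVA2 clusters (12 and 13 tags), of which the position with 13 tags of either protein was shared.

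The Mef2 genes code for activity-regulated factors of neurons and muscle. Mef2c held 19 NOVA2 clusters with 838 tags and 3 NOVA1 clusters with 45 tags. Of the NOVA2 clusters 11 were in introns and 8 in the 3' UTR, and the highest, with 157 tags, was in the 3' UTR and overlapped NOVA1 clusters of 25 and 10 tags. Intron clusters of 141 and 109 NOVA2 tags in intron 4 had no NOVA1 cluster. Mef2a held 8 NOVA2 clusters and 1 NOVA1 cluster. Mef2d, of 29715 nt, held a single NOVA2 cluster of 23 tags, in coding sequence.

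Among the zinc-finger genes, Zbtb20, a repressor known from hippocampal and upper-layer neurons, was bound most. It held 40 NOVA2 clusters with 1200 tags and 7 NOVA1 clusters with 162 tags, and all 7 overlapped NOVA2. Its annotated 3' UTR segments, 23561 nt in all, held 14 NOVA2 and 5 NOVA1 clusters, with 173 NOVA2 and 28 NOVA1 tags at the highest NOVA2 position and 153 NOVA2 and 65 NOVA1 tags at the highest NOVA1 position. Bcl11a held 11 NOVA2 and 6 NOVA1 clusters, and Bcl11b, the subcerebral factor known as Ctip2, 5 and 4. The highest NOVA2 cluster of Bcl11a, with 72 tags in the 3' UTR, had no NOVA1 cluster. Bcl11a had 1 NOVA1 cluster without NOVA2 overlap, of 10 tags in intron 2, and Bcl11b 1, of 12 tags in coding sequence. Fezf2, of 3974 nt, had none in either list.

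The homeodomain, Cut and Pou genes were 10 in number, and 8 held NOVA2 clusters and 5 NOVA1 clusters. Meis2, a TALE homeodomain gene, stood out with 20 NOVA2 clusters (437 tags) and 8 NOVA1 clusters (159 tags). At its 3' UTR the NOVA1 cluster had 53 tags and the NOVA2 cluster, which also overlapped a NOVA1 cluster of 16 tags, had 50. The upper-layer genes Cux1 and Cux2 held few clusters for their length. Cux1 had 6 NOVA2 clusters of at most 27 tags in 319297 nt, and Cux2 had 1 position in 191716 nt. Per 100 kb of gene this was 1.88 and 0.522 NOVA2 clusters, against 3.17 over all protein-coding genes. The Cux2 position had 170 NOVA2 and 12 NOVA1 tags, a log2 ratio of -3.82, the lowest of all pairs in the members. Pax6 was bound in the 3' UTR alone, with NOVA1 and NOVA2 tags of 32 and 10 at 1 position and 11 and 15 at the other.

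Zfhx3 held 2 NOVA2 clusters and 1 NOVA1 cluster, and its shared 3' UTR position had 21 NOVA1 and 11 NOVA2 tags. Zfhx4 held 5 NOVA2 clusters of 13 to 22 tags, Lhx2 4 of 20 to 26 tags, all in introns, and Satb1, a chromatin organiser, 2 of 26 and 37 tags. Pou3f3, without an intron, had the NOVA1 cluster of 33 tags in coding sequence and no NOVA2 cluster, and Pou3f2, also without an intron, had none.

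Of the T-box genes, Tbr1 was bound in the 3' UTR and Eomes, the marker of intermediate progenitors, had no cluster of at least 10 tags in either list. The 3' UTR of Tbr1, of 1679 nt, held 4 NOVA2 clusters of 75, 41, 13 and 11 tags, and NOVA1 clusters of 38 and 11 tags at the first pair of these. Among the remaining genes, Tle4, a Groucho-type co-repressor of deep layers, held 19 NOVA2 clusters with 449 tags and 4 NOVA1 clusters, with 7 of the NOVA2 clusters in intron 5. Ebf1 held 6 NOVA2 and 2 NOVA1 clusters in a gene of 390775 nt, the highest in the 3' UTR with 61 NOVA1 and 85 NOVA2 tags. Rorb, the layer 4 factor, held 2 NOVA2 clusters (27 and 30 tags) and Etv1, a layer 5 factor, 2 (10 and 17 tags).

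Most NOVA1 clusters of these transcripts overlapped a NOVA2 cluster, by a share that fell when weaker NOVA2 clusters were left out. Of the NOVA1 clusters 103 of 112 overlapped a NOVA2 cluster (92.0%, 85.4 to 95.7), beside 80.2% over all protein-coding genes. Among NOVA1 intron clusters alone the shares did not differ, at 95.7% (88.1 to 98.5) in the members and 95.7% over all protein-coding genes. Of the NOVA2 clusters 104 of 618 overlapped a NOVA1 cluster (16.8%, 14.1 to 19.98), beside 21.9%. With the NOVA2 list reduced to its highest clusters, as many as NOVA1 had, NOVA1 clusters were shared at 67.0% (57.8 to 74.99) and NOVA2 clusters at 45.7% (38.2 to 53.4). With at least 25 NOVA2 tags they were 71.4% and 34.8%. Shares over all protein-coding genes at these settings are not given, so whether the members differ there was not tested. The 9 NOVA1 clusters without NOVA2 overlap were in 8 genes: Pou3f3 with 33 tags, Nfix with 14 in the 3' UTR and 12 in coding sequence, Myt1l with 13, Bcl11b with 12, Meis2 and Sox6 with 11, and Bcl11a and Tle4 with 10. They were 3 in introns, 3 in 3' UTRs and 3 in coding sequence. Shared NOVA2 clusters had a median of 58 tags (quartiles 27 and 89.3) and unshared ones 17 (13 and 26).

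The annotation classes of the NOVA2 clusters were close to those over all protein-coding genes with Auts2 among the members, but not without it. Introns held 84.1% (81.1 to 86.8) of NOVA2 clusters in the members and 84.0% over all genes, and 3' UTRs 13.9% (11.4 to 16.9) and 13.7%. Without Auts2 the NOVA2 shares were 79.1% (75.1 to 82.6) in introns and 19.3% (15.9 to 23.3) in 3' UTRs. For NOVA1 the intron share was 62.5% (53.3 to 70.9) in the members and 45.6% over all genes, but it was 48.8% (38.3 to 59.4) without Auts2. The 3' UTR share of NOVA1 clusters was 30.4% (22.6 to 39.4), and 41.5% without Auts2, against 43.2% over all genes. Coding sequence held 4 NOVA1 clusters (3.57%, 1.40 to 8.82), against 9.93% over all genes, and 6 NOVA2 clusters.

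**Figure D3:**
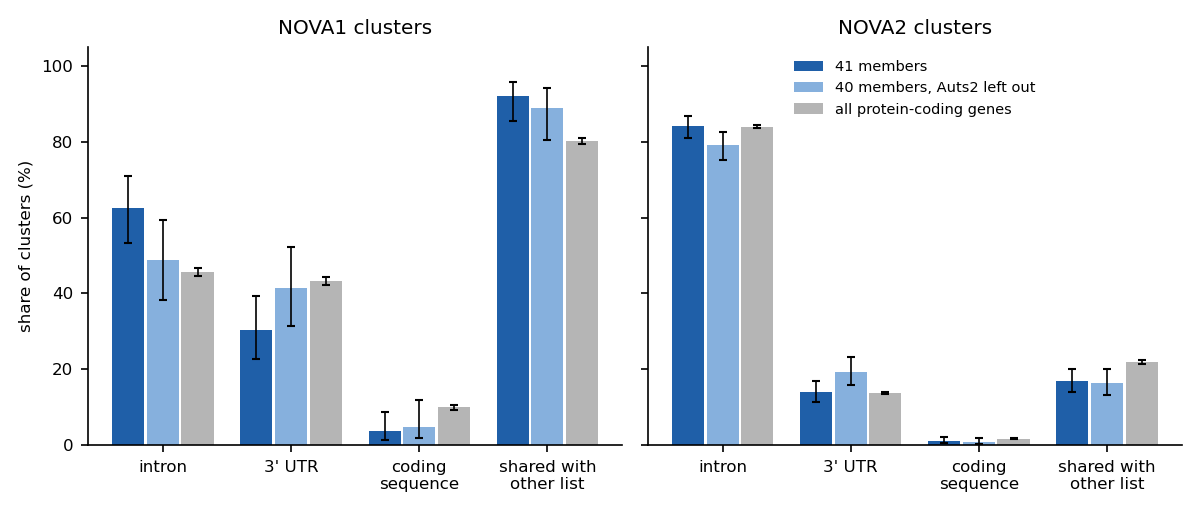
Share of NOVA1 clusters (left) and NOVA2 clusters (right) in introns, 3' UTRs and coding sequence and share that overlaps the other list, in percent with Wilson 95% intervals, for the 41 members, the members without Auts2 and all protein-coding genes. The NOVA1 intron share of 62.5% falls to 48.8% without Auts2, near the 45.6% of all genes.

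In 3' UTRs a smaller share of NOVA2 clusters overlapped NOVA1 in the members than over all genes. Clusters of the same gene are not independent, so the intervals of these shares are not a test. NOVA2 had 86 clusters in the 3' UTRs of 24 members, and 31 of them overlapped a NOVA1 cluster (36.0%, 26.7 to 46.6), where 64.5% (63.1 to 65.9) did over all protein-coding genes. With at least 20 tags required in both lists the shares were 33.3% (14 of 42) in the members and 59.8% over all genes. Without Zbtb20, the member with most 3' UTR clusters, the share was 36.1%. In introns the share was 13.1% (10.4 to 16.2) in the members and 14.0% over all genes. The NOVA1 clusters of the 3' UTRs, 34 in 19 members, overlapped NOVA2 in 91.2% (77.0 to 97.0), where 73.9% did over all genes, but at 20 or more tags in both lists these shares were 75% of 16 and 77.0%.

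At positions bound by both proteins the tag counts were compared as listed and then scaled. There were 96 pairs that overlapped one to one, were of the same class and lay in members. At the 66 intron pairs the log2 of NOVA1 over NOVA2 tags had a median of -1.93 (-2.27 to -1.64), close to the -2.04 over all protein-coding genes, and -1.62 without Auts2. At the 25 pairs in 3' UTRs it was -1 (-1.62 to -0.45), against -0.40 (-0.45 to -0.35) over all genes. NOVA1 had more tags at 4 of these 25, in Pax6, Myt1l, Zfhx3 and Sox6, and at 1 of the 66 intron pairs, in Meis2 with 12 and 11 tags. Since a pair needs 10 tags in either list, positions where 1 protein falls short of that have no ratio. These values are not scaled, and the ratio of library sizes remains within each. Divided by the unique tags of each protein's libraries, an alternative added after the data were seen, the median was -0.58 (-0.92 to -0.29) at the intron pairs and 0.35 (-0.27 to 0.90) at the 3' UTR pairs of the members, so the direction turned in 3' UTRs and the interval held 0. Over all protein-coding genes the scaled medians were -0.69 in introns and 0.95 in 3' UTRs. NOVA1 was then higher at 17 of the 66 intron pairs and 17 of the 25 3' UTR pairs of the members, beside 24.4% and 84.9% of the pairs over all genes.

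**Figure D4:**
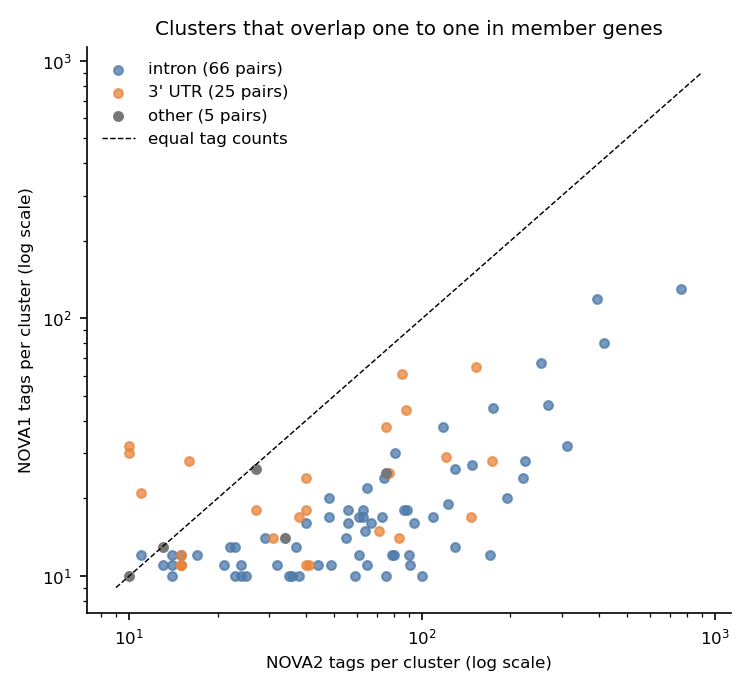
NOVA1 tags against NOVA2 tags at each of the 96 positions of member genes where a cluster of either list overlaps 1 of the other, on log scales and not scaled to library size, with intron pairs in blue, 3' UTR pairs in orange and a dashed line at equal counts. Of the points above the line 4 are in 3' UTRs and 1 is in an intron.

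Within introns, the clusters of the members, with Auts2 among them, lay farther from exons than those over all protein-coding genes. Distance was measured to the nearest exon of the gene's protein-coding transcripts, and exons of noncoding transcripts were left out. Its median was 17186.5 nt for the 520 NOVA2 and 24963.5 nt for the 70 NOVA1 intron clusters. Over all protein-coding genes the medians were 11435 and 13915 nt. More than 10 kb away lay 341 of the NOVA2 clusters (65.6%, 61.4 to 69.5) and 49 of the NOVA1 clusters (70%, 58.5 to 79.5), against 52.4% and 55.1%. Within 500 nt of an exon lay 26 NOVA2 clusters (5%, 3.43 to 7.23), 8 upstream of the exon, 17 downstream and 1 that touched it, and 5 NOVA1 clusters (7.14%, 3.09 to 15.7). Over all protein-coding genes 9.84% (9.49 to 10.2) of NOVA2 and 11.8% (10.8 to 12.9) of NOVA1 intron clusters lay so near, the latter within the interval of the members. Auts2 held 30 of the 70 NOVA1 and 168 of the 520 NOVA2 intron clusters. Most of its NOVA1 clusters lay more than 10 kb from an exon. Distances without Auts2 are not given, so how much of the difference rests on this gene was not tested. The members were also longer, with a median span of 149912 nt against 15516.5 nt over all protein-coding genes. Distances were not set against intron length, so its part in the difference was not tested.

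Intron clusters that lay within 500 nt of an exon without touching it were found in 14 members. In Auts2 the cluster upstream of exon 13, an exon of 96 nt, had 268 NOVA2 and 46 NOVA1 tags, and another, 430 nt downstream of exon 20, had 94 and 16. In Tcf12 a cluster with 61 NOVA2 and 12 NOVA1 tags lay 112 nt downstream of exon 18, and in Tle4 one with 22 and 13 tags lay 76 nt downstream of exon 5. In Meis2 clusters with 15 NOVA2 and 12 NOVA1 tags lay 65 and 108 nt upstream of exon 11. These 5 were the only near-exon positions of the members with both proteins. In Myt1l, intron 11 held NOVA2 clusters at both ends, 37 nt downstream of exon 11 with 41 tags and 80 nt upstream of exon 12 with 23 tags. In Zfhx4 a NOVA2 cluster of 19 tags lay 32 nt downstream of exon 6. Splicing of these exons was not analysed here.

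The YCAY content of the members' clusters was close to that over all protein-coding genes. NOVA2 clusters held 40.3 YCAY per 1000 possible starts and flanks 200 to 500 nt away 18.04, a ratio of 2.24 (2.16 to 2.31), against 2.30 over all protein-coding genes. NOVA1 clusters held 36.8 and their flanks 17.2, a ratio of 2.14 (1.97 to 2.31), against 2.04. A YCAY was missing from 6 of 618 NOVA2 clusters and 1 of 112 NOVA1 clusters, beside 206 of 32160 and 144 of 8692 over all protein-coding genes. UCAU was the tetramer with the highest ratio to flanks in both lists, with a log2 ratio of 1.68 for NOVA1 and 1.66 for NOVA2, followed by CAUC with 1.66 and 1.42.

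The YCAY content differed by class. For NOVA1 the ratio was 2.61 (2.37 to 2.87) in introns and 1.47 (1.24 to 1.74) in 3' UTRs, and for NOVA2 it was 2.32 (2.24 to 2.41) and 1.61 (1.44 to 1.81). The order was the same over all protein-coding genes, with 2.81 and 1.54 for NOVA1 and 2.41 and 1.71 for NOVA2. In the 103 shared NOVA1 clusters it was 2.24 (2.06 to 2.43), and in the 9 unshared ones 1.30 (0.907 to 1.86). For NOVA2 it was 2.14 (1.97 to 2.31) in shared and 2.26 (2.18 to 2.35) in unshared clusters. Over all protein-coding genes the shared and unshared ratios were 2.20 and 1.39 for NOVA1, and 2.24 and 2.33 for NOVA2. In Auts2 the ratio was 2.42 for NOVA1 and 2.06 for NOVA2.

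**Figure D5:**
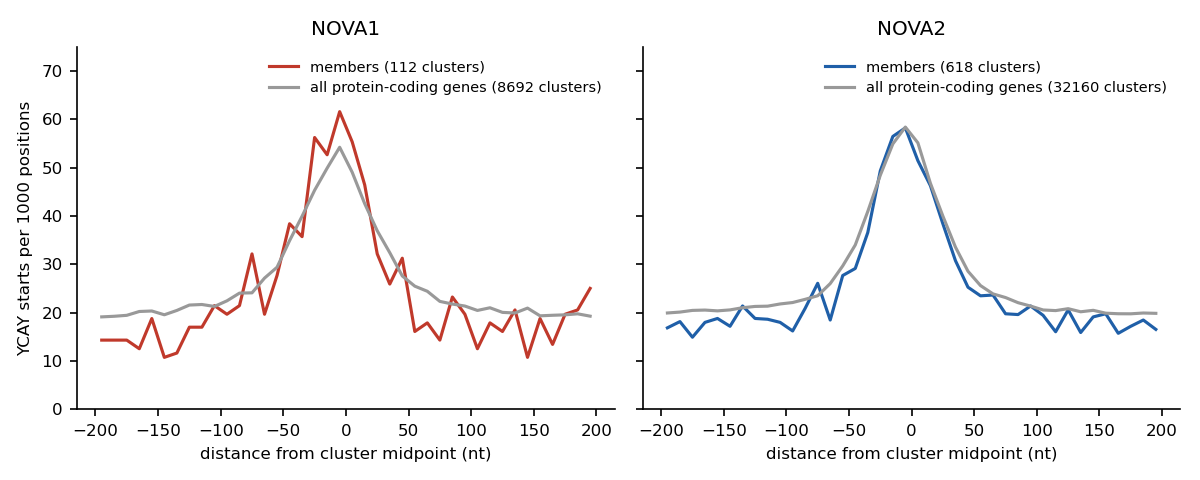
YCAY starts per 1000 positions in bins of 10 nt against the distance from the cluster midpoint in nt, for clusters of the members (coloured) and of all protein-coding genes (grey), NOVA1 left and NOVA2 right. In the bin just before the midpoint the members reach 61.6 for NOVA1 and 58.3 for NOVA2.

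Some clusters had a similar sequence elsewhere in the genome. Such a further copy was found for 3 of the 112 NOVA1 and 13 of the 618 NOVA2 clusters of the members. The search masked sequence of low complexity, so copies of simple repeats, such as runs of TCAT, may have been missed. The most copies found were those of the Myt1l cluster with 44 NOVA2 and 11 NOVA1 tags in intron 13, with 3225 for the NOVA1 cluster. Clusters of other genes were not searched, and whether tags could align to the copies was not tested. No cluster of the members overlapped another gene of its strand, and 1 NOVA2 cluster lay on the opposite strand of a member, Nfib.

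As a wider view, 53 further transcriptional regulators of the developing cortex that are not members were counted by the same rule. NOVA1 clusters were found in 17 of the 53 (61 clusters), beside 12.8% of all protein-coding genes and 61.0% of the members. NOVA2 clusters were found in 24 of the 53 (262 clusters), beside 22.7% and 82.9%. For either protein the share in the further regulators lay between these values. Among those with most clusters, Rfx3 held 10 NOVA1 and 33 NOVA2 clusters and Zeb2, a repressor active in newborn cortical neurons, 3 and 31.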

How the data were processed

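NOVA1 and NOVA2 HITS-CLIP was carried out in E18.5 wild-type CD1 cortex, with 3 libraries per protein. The submitters' processing notes name mm9 and Novoalign, and PCR duplicates were removed by the authors. The deposited lists hold the tag count of each cluster, pooled by the authors over the libraries of a protein and not scaled to library size. The lists do not name this column. The study calls the tag number behind its threshold a peak height, so tag sums over clusters may be sums of heights. Tags outside clusters are not listed, so depth cannot be read from the lists; the unique tag totals that the study gives, higher for NOVA2, were used in 1 alternative.

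Cluster positions were compared with NCBIM37 and GENCODE vM1. A cluster took the class covering most of its nucleotides, with precedence in the order coding sequence, 3' UTR, 5' UTR, noncoding exon, intron. Overlap between lists was at least 1 nt on 1 strand. Shares carry Wilson intervals, medians binomial order-statistic intervals, and YCAY ratios the Wilson interval of the YCAY rate in clusters. Further copies were BLAST 2.17.0 matches of at least 90% identity over at least 50% of a cluster, with sequence of low complexity masked. Python 3.11.15, NumPy 2.4.6, SciPy 1.17.1 and pysam 0.24.0 were used, and functions were tested on simulated data.

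The members, families, further regulators and alternatives were chosen with earlier results of these data known. Named were the 12 members with most NOVA2 and 6 with most NOVA1 clusters, those with more NOVA1 than NOVA2 clusters, with unshared NOVA1 clusters, with the highest cluster per class, with coding clusters or with no cluster. The other named positions, and the sequences beyond the highest intron and 3' UTR clusters, were chosen after their values were seen. Some further regulators are counted but not reported here by name.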

Additional observations from a re-analysis of the deposited data

How the results depend on the processing

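No paired analysis was possible because each list gives 1 pooled value per cluster, and no library could be left out for the same reason. Of 76 values under alternative settings, 52 stayed close to the value reported, 23 moved and 1 reversed direction. The reversed one was the 3' UTR log2 ratio of NOVA1 to NOVA2 tags, 0.35 when tags were divided by the unique tags of each protein's libraries, with which the intron ratio was -0.58. With at least 20 tags in both lists there were 36 NOVA1 and 303 NOVA2 clusters, 10.9% of NOVA2 clusters were shared, 47.2% of NOVA1 clusters lay in introns and 44.4% in 3' UTRs, 75% of 3' UTR NOVA1 clusters were shared, and the intron log2 ratio was -2.31. With at least 25 NOVA2 tags there were 230 NOVA2 clusters, and 71.4% of NOVA1 and 34.8% of NOVA2 clusters were shared. With the NOVA2 list reduced to as many clusters as NOVA1 (31 tags or more) there were 162 NOVA2 clusters, and the shared parts were 67.0% and 45.7%. Without Auts2 the intron and 3' UTR shares were 48.8% and 41.5% for NOVA1 and 79.1% and 19.3% for NOVA2, and the intron log2 ratio was -1.62. The YCAY ratio was 2.37 for NOVA1 and 2.35 for NOVA2 with flanks at 500 to 1000 nt, and 2.55 and 2.36 in windows of 50 nt at either side of the midpoint. Fewer clusters at higher thresholds follow from the setting itself; and the shift under scaling is the log2 ratio of the totals; for the other values the cause was not tested. The scaling, and the alternatives without Zbtb20 and with 20 tags for 3' UTR sharing, were added after the data were seen. The pooled, unscaled counts limit any order between the proteins, and a gene without a cluster is a gene without one of at least 10 tags.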
